A study of Mus musculus with 20 samples.

Results

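*Trem2*, *Tyrobp*, *Syk*, *Itgax*, *Cst7*, *Cd9* and *Cd63* were followed in microglia sorted from the mouse spinal cord before and after injury. These 7 genes were taken by symbol from the first column of the table of normalised counts, in which all 7 were found among 16810 genes. Each of the 7 had reads in each of the 20 samples, so that none was lost to a filter on low values. The cells came from adult male mice heterozygous for CX3CR1+/eGFP on a C57BL/6 background, in which 1 copy of the fractalkine receptor gene is replaced by eGFP, and the non-injured controls carried the same allele. Cells high in eGFP were sorted by flow cytometry from a segment of cord centred on a thoracic lesion, or from the matching segment of controls, and their polyadenylated RNA was sequenced. The groups were non-injured (NI, 3 samples), lateral hemisection (HS) at 72 h (3 samples), 1 week (2 samples) and 2 weeks (3 samples), and full transection (FT) at 72 h, 1 and 2 weeks (3 samples each). The eGFP allele also labels monocytes and some other leukocytes, a library may pool several animals, and the labels do not say that replicates are separate animals. The p-values therefore measure the spread between these samples. Because the RNA is from sorted bulk cells, fewer cells that express a gene and less RNA of it per cell cannot be told apart.

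*Trem2* is a surface receptor of microglia that binds lipids, lipoproteins and cell debris. It has no signalling tail of its own and passes its signal through the adaptor *Tyrobp* (also called DAP12), whose phosphorylated motif recruits the kinase *Syk*. In models of neurodegeneration microglia pass from a homeostatic state to a disease-associated state (DAM), and the later stage of that passage depends on *Trem2*. *Itgax*, *Cst7*, *Cd9* and *Cd63* are genes commonly used to mark that state.

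Levels are the deposited normalised counts, in CPM (the reads of a gene scaled to the size of its library and by a further factor per library). The column totals differ, so the scaling is not to library size alone. Genes were called differentially expressed (DE) where the limma p-value, adjusted by Benjamini-Hochberg across all 16810 genes, was under 0.05 and the difference reached 2-fold. Differences are given on the log2(CPM + 0.5) scale, where 1 stands for 2-fold, with the standard error (SE).

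The 7 genes did not respond as 1 block. *Cst7* and *Cd63* rose in all 6 injured groups against NI, *Cd9* in 5, *Tyrobp* in 4 and *Itgax* in 4, whereas *Trem2* and *Syk* passed the test in none. None of the 7 was called lower, against 4.31%, 0.482% and 0.797% of all genes at 72 h, 1 and 2 weeks after HS and 4.09%, 1.2% and 1.36% after FT. After HS, 4 of the 7 genes were called higher at 72 h, against 9.08% of all genes tested, 3 at 1 week against 1.7%, and 4 at 2 weeks against 2.43%. After FT, 4 were called higher at 72 h against 8.14% of all genes, 5 at 1 week against 2.86%, and 5 at 2 weeks against 3.53%. The median log2 difference over the 7 genes ran from 0.82 at 1 week after HS to 1.56 at 2 weeks after FT. Over all genes tested it lay between −0.11 and 0.02. All 6 comparisons share the same 3 NI samples. The 7 genes were chosen with earlier results of these data known, so that their counts beside those of all genes are a description.

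**Figure D1:**
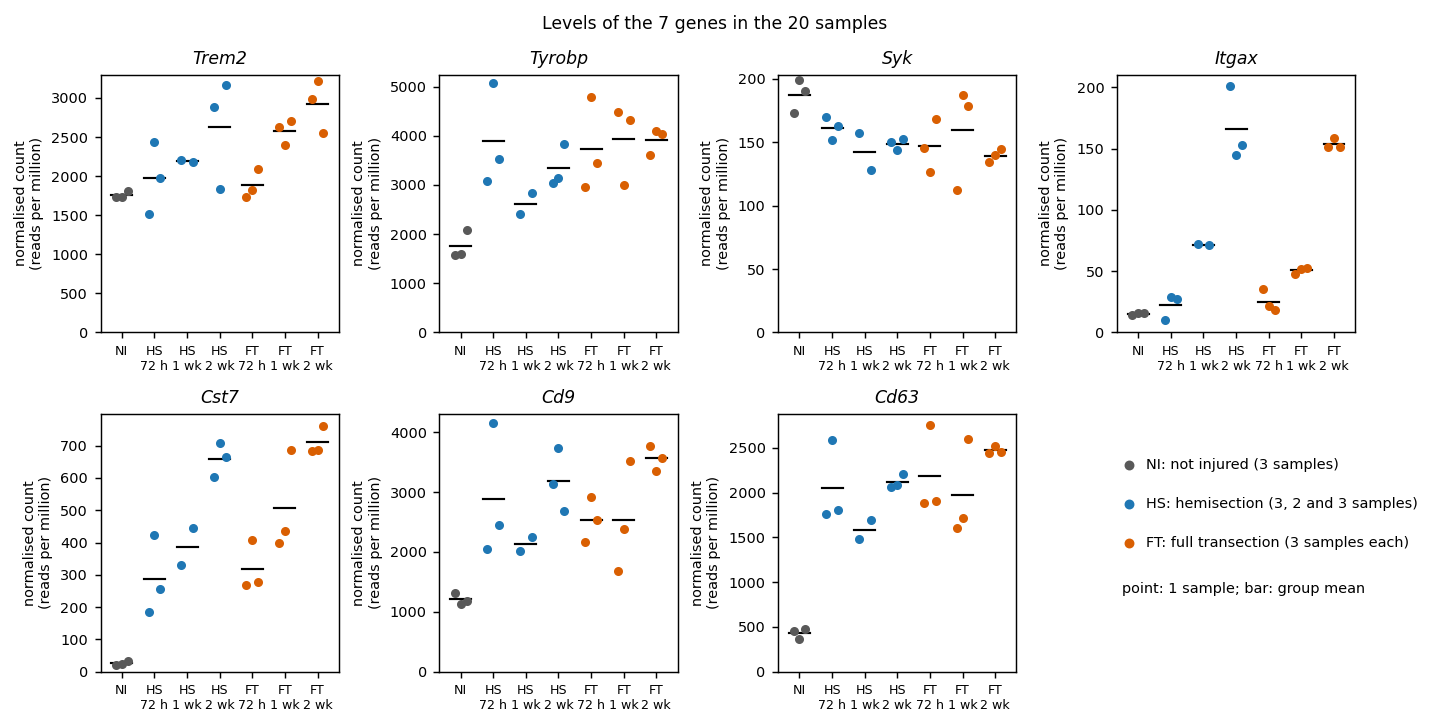
Normalised counts (CPM, y axis, from 0) of the 7 genes in the 20 samples by group (x axis). Points are samples and bars are group means. *Cst7* goes from 26.4 in NI to 710 at 2 weeks after FT, and *Itgax* is at most 35.3 at 72 h and at least 145 in all samples at 2 weeks.

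The upstream sequences of 4 of the genes are shown because these genes span the range of responses, from *Trem2* (never called) through *Itgax* (called from 1 week) to *Cst7* and *Cd63* (called at all times). The windows hold the 250 bases before the RefSeq start (GRCm38.p6), 5′ to 3′ on the strand of the gene, and capitals mark matches to 3 short motifs searched on both strands.
*Trem2*, chr17:48346151-48346400, plus strand: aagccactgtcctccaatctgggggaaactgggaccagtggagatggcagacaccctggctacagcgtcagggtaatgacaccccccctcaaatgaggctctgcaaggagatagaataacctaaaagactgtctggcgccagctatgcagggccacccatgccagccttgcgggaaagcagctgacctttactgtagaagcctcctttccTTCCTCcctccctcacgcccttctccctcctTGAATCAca
*Itgax*, chr7:128129300-128129549, plus strand: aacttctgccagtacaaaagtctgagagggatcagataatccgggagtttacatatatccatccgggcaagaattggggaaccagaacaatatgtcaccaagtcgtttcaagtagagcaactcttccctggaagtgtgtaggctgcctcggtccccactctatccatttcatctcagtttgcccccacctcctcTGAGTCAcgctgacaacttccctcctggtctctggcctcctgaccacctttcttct
*Cst7*, chr2:150570165-150570414, plus strand: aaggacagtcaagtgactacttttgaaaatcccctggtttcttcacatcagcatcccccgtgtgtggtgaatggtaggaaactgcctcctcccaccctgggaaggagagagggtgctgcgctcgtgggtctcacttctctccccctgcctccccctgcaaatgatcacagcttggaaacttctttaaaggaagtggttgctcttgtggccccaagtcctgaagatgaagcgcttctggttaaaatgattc
*Cd63*, chr10:128909095-128909344, plus strand: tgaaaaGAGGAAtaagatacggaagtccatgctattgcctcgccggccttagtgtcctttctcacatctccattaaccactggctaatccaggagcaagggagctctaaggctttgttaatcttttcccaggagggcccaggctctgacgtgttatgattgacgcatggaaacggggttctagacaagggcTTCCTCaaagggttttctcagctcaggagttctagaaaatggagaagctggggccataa
The motifs were GAGGAA (here called PU.1 core, 1 form of the site bound by PU.1, the factor that specifies the macrophage lineage), CACGTG (bound by the MiT/TFE factors of lysosomal genes) and TGANTCA (bound by AP-1), and none overlaps another. Among 32851 promoter windows of the same length, 23.25% hold the first, 6.021% the second and 6.749% the third. *Trem2* has a PU.1 core on the minus strand (read TTCCTC) 40 bases before the start and an AP-1 match 9 bases before it. *Itgax* has an AP-1 match 56 bases before the start, and *Cd63* has PU.1 cores 244 and 59 bases before it. The *Cd63* window lies inside the gene, which begins at 128900989 in GENCODE vM21, so that it precedes an internal start. The windows of *Cst7* and *Cd9* hold no match to these 3 motifs, and of the 2 RefSeq starts of *Syk* the downstream one has a PU.1 core. Other forms of these sites were not searched. These matches describe letters and do not show binding.

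All 7 are protein-coding genes. In GENCODE vM21 (GRCm38) *Trem2* lies on chromosome 17 from 48346401 to 48354147, *Tyrobp* on chromosome 7 from 30413760 to 30417585, and *Syk* on chromosome 13 from 52583173 to 52648792, all on the plus strand. *Itgax* lies on chromosome 7 from 128129547 to 128150657, *Cst7* on chromosome 2 from 150570415 to 150578944, and *Cd63* on chromosome 10 from 128900989 to 128912822, also on the plus strand, and *Cd9* lies on the minus strand of chromosome 6 from 125460266 to 125494791. *Tyrobp* lies 127 bases from *Hcst*, which encodes the sister adaptor DAP10 and is read from the opposite strand. The library kit does not mark strand. *Cd9* shares 218 of its 2044 exon bases with an antisense transcript (*Gm26728*) that was not in the table. Reads that lie within the shared bases cannot be told apart.

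Depth ranged from 3872918 to 34099232 reads on genes per sample, and 1 read was worth 0.0330 to 0.292 CPM. The fewest reads behind any value of the 7 genes were 75 (*Itgax* in FT 72 h replicate 2). All 10 microglia markers were detected, with sums of 22921 to 32433 CPM (NI) and 18503 to 38940 CPM (injured). The 12 monocyte and macrophage markers summed to 97.4 to 113 CPM in NI. Their sum was 656 to 833 CPM (HS) and 581 to 1436 CPM (FT) at 72 h, and 225 to 510 CPM later. The monocyte receptor *Ccr2* followed only the early part of this, with 17.99 CPM in NI, 72.0 CPM (HS) and 97.1 CPM (FT) at 72 h and 17.8 to 27.4 CPM in the later groups. Of the 12 markers, 5 (HS) and 7 (FT) were called higher at 72 h, with 1 lower after HS. In each later comparison with NI 1 was called higher, and 1 lower (2 at 2 weeks after FT). The median log2 difference of the list was 0.72 at 1 week after HS and −0.01 to 0.08 in the other later groups. All 10 proliferation markers were DE higher at 72 h after both injuries, and their sum went from 55.4 to 64.6 CPM (NI) to 682 to 1143 CPM. The part of these markers in the results below was not tested.

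*Trem2*, the receptor, passed the test in no comparison with NI. The NI samples had 1733, 1739 and 1807 CPM. After HS it had 1515, 2443 and 1981 CPM at 72 h, 2210 and 2180 CPM at 1 week, and 2883, 1836 and 3169 CPM at 2 weeks. After FT it had 1735, 1828 and 2088 CPM at 72 h, 2635, 2392 and 2700 CPM at 1 week, and 2990, 3215 and 2546 CPM at 2 weeks. At 72 h the FT samples overlapped NI and HS replicate 1 lay below it. From 1 week on all samples of both injuries lay above the highest NI sample, HS 2 weeks replicate 2 by little. Here and for the genes below, the share of all genes so separated from NI at single times, or between times, is not given. Such separation is therefore a description and not a called difference. Against NI the log2 difference was 0.14 ± 0.23 (SE), 0.32 ± 0.26 and 0.54 ± 0.23 after HS and 0.09 ± 0.23, 0.55 ± 0.23 and 0.72 ± 0.23 after FT. None passed the test, and the nearest was FT at 2 weeks, a 1.65-fold difference with an adjusted p of 0.0567 and a lower 95% bound of 0.25 for the log2 difference. Its group means stood in the order NI, FT 72 h, HS 72 h, HS 1 week, FT 1 week, HS 2 weeks and FT 2 weeks, and no neighbours in that order passed the test (adjusted p of at least 0.693). Neighbours, here and for the genes below, were picked by their observed means. Their tests therefore cannot show that groups are alike.

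*Tyrobp*, the adaptor, rose in all comparisons with NI but HS at 1 and 2 weeks. It had 1581, 1601 and 2093 CPM in NI. After HS the samples had 3090, 5073 and 3522 CPM at 72 h, 2404 and 2833 CPM at 1 week, and 3041, 3141 and 3827 CPM at 2 weeks. After FT they had 2963, 4796 and 3441 CPM at 72 h, 4485, 3008 and 4328 CPM at 1 week, and 3600, 4106 and 4035 CPM at 2 weeks. All 17 injured samples lay above all 3 NI samples, and the second replicate stood highest at 72 h after either injury. *Tyrobp* rose by 1.13 ± 0.26 at 72 h after HS (2.18-fold, adjusted p = 0.00233) and by 1.07 ± 0.26, 1.15 ± 0.26 and 1.16 ± 0.26 at 72 h, 1 and 2 weeks after FT. The difference was 0.58 ± 0.29 at 1 week after HS (adjusted p = 0.407) and 0.93 ± 0.26 at 2 weeks (adjusted p = 0.0359, below the limit of 2-fold). Without the second replicate the 72 h difference was 0.92 after HS and 0.87 after FT, below 2-fold in both. The call at 72 h after FT was also lost without NI replicate 1 (1.00, just below the limit), and the difference at 2 weeks after HS passed without NI replicate 3 (1.06, adjusted p = 0.0495). From lowest to highest the groups were NI, HS 1 week, HS 2 weeks, FT 72 h, HS 72 h, FT 2 weeks and FT 1 week, and no neighbours in this order passed the test (adjusted p of at least 0.407).

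*Syk*, the kinase that docks on the adaptor, did not pass the test at any time. It had 173, 199 and 190 CPM in NI. It had 170, 151 and 163 CPM at 72 h, 157 and 128 CPM at 1 week and 150, 144 and 153 CPM at 2 weeks after HS. After FT it had 146, 126 and 169 CPM at 72 h, 112, 188 and 179 CPM at 1 week, and 134, 140 and 145 CPM at 2 weeks. All injured samples lay below the lowest NI sample except FT 1 week replicates 2 and 3. The share of all genes that lay below NI in this way is not given, and *Syk* was not called lower. The log2 differences from NI ran from −0.21 ± 0.18 (HS 72 h) to −0.42 ± 0.18 (FT 2 weeks), with adjusted p-values of 0.149 to 0.492. NI stood highest and FT 2 weeks lowest, and no neighbours in the order passed the test (adjusted p of at least 0.382). Of the 7 genes, *Trem2* and *Syk* had the narrowest ranges of group means, 0.72 and 0.42 on the log2 scale.

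**Figure D2:**
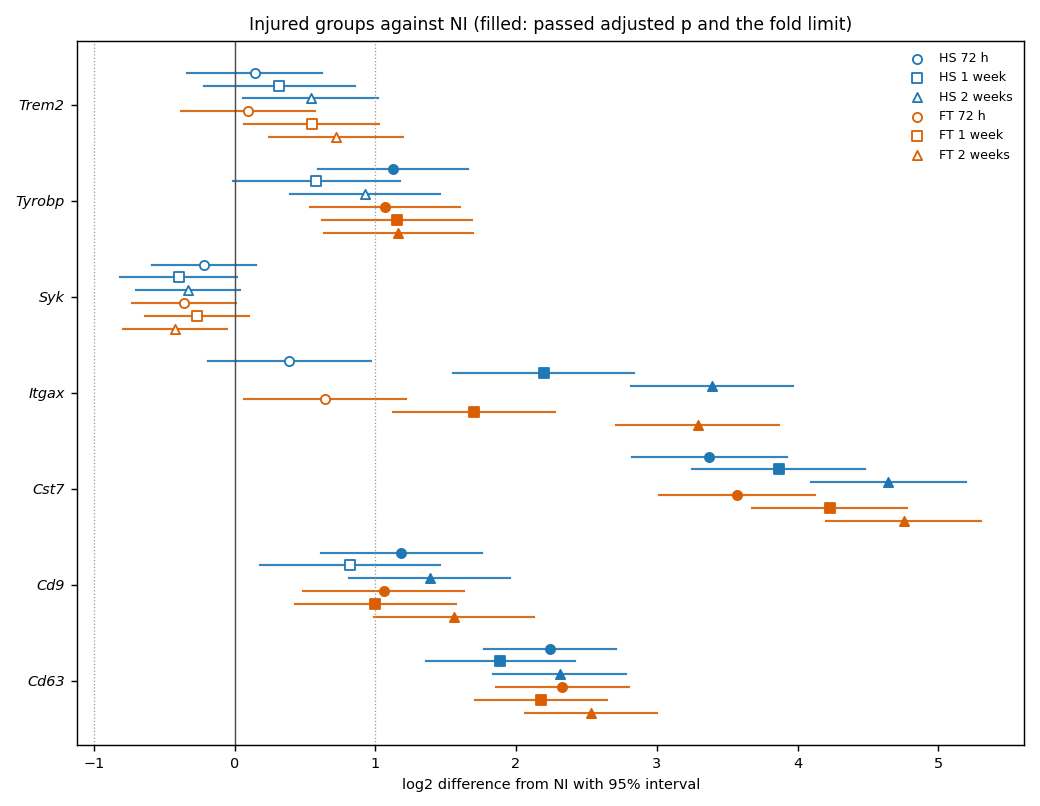
Log2 differences from NI (x axis) of the 7 genes (y axis) in the 6 injured groups, as points with 95% intervals from limma. Filled points passed the test, and dotted lines mark 2-fold. *Trem2* and *Syk* have open points throughout, and *Itgax* moves from 0.39 and 0.64 at 72 h to 3.39 and 3.29 at 2 weeks.

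The genes around the receptor and kinase were examined as lists written from general knowledge. Genes named from a list were those with the largest rise or fall or called in all 6 comparisons with NI, and any other was chosen after its values were seen. Of 35 genes of *Tyrobp* and *Syk* signalling, 29 were called in no comparison with NI. Called higher were 4 (72 h), 1 (1 week) and 2 (2 weeks) after HS and 5, 4 and 3 after FT, with 1 lower at 72 h after either. The 29 include the Src-family kinases *Lyn* and *Fyn*, the phospholipases *Plcg1* and *Plcg2*, the guanine exchange factor *Vav1* and the kinase *Btk*. The other 6 were *Tyrobp*, *Hcst*, *Fcer1g*, *Fgr*, *Rac2* and *Src*. The median difference of the list was between −0.02 and 0.03, close to that of all genes. These counts depended on the scaling. At 72 h after HS and FT, 1 and 1 of the 35 were called higher and 5 and 4 lower with every column set to the same total (equal column totals), and 3 and 3 higher and 4 and 2 lower after quantile normalisation. Under equal column totals the median lay between −0.19 and −0.49, again close to that of all genes under that scaling.

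*Fgr*, a Src-family kinase of myeloid cells, rose in all 6 comparisons, from 15.1 CPM in NI to 82.4 CPM (HS) and 90.1 CPM (FT) at 2 weeks. With equal column totals its 72 h differences (0.97 and 0.91) stood below 2-fold. *Rac2*, a GTPase of the phagocyte oxidase, had the largest rise of the list at 72 h (1.93 after HS and 1.60 after FT). *Src* was the only gene called lower (by −1.44 and −1.40 at 72 h, adjusted p = 6.83e-05 and 0.000102). *Hcst* and *Fcer1g* are adaptors with roles like that of *Tyrobp*. *Hcst* went from 12.2 CPM in NI to 21.2 to 36.1 CPM and was called in 5 comparisons, all but HS 1 week. *Fcer1g*, the common gamma chain of Fc receptors, was called at 72 h after FT (1.07, adjusted p = 0.00521). The phosphatases that restrain this pathway, *Inpp5d* (SHIP1) and *Ptpn6* (SHP-1), were called in no comparison.

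Among 19 brakes on *Syk* signalling, 4 genes were called higher at 72 h after HS, 3 at 72 h after FT and 2 in each later comparison, and 14 were never called. With equal column totals 4 (HS) and 2 (FT) were called lower at 72 h, against 1 and 0. *Lilrb4* and *Cd300lf*, inhibitory receptors, rose in all 6. *Lilrb4* went from 36.2 CPM in NI to between 276 and 346 CPM in the injured groups, with log2 differences of 2.85 to 3.25. *Socs1*, a feedback inhibitor of cytokine receptors, was the only gene called lower, at 72 h after HS (−1.19, adjusted p = 0.015), where its level was 0.243 CPM against 1.18 CPM.

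Several other receptors that share the adaptor were called. Of 9 such receptors in the table, 5 were called higher and 1 lower at 72 h after HS, 5 higher at 72 h after FT, 2 higher at 1 week after HS and 1 in each other comparison. *Cd300lb*, an activating receptor, rose in all 6, from 5.11 CPM in NI to 44.3 CPM (HS) and 45.8 CPM (FT) at 2 weeks. *Trem1*, the family member known from neutrophils and monocytes, had 1.01 CPM in NI and 7.10 CPM (HS) and 12.2 CPM (FT) at 72 h, with log2 differences of 2.33 and 2.85. It was also called at 1 week after HS (2.15). *Klrd1*, a receptor chain of natural killer cells, was the gene called lower (by −1.75, from 2.72 to 0.477 CPM). Within the family of 6 Trem genes, 3, 2 and 1 were called higher with time after HS and 4, 1 and 1 after FT. *Treml2* rose in all 6 comparisons (5.89 CPM in NI and 20.5 to 30.6 CPM after injury), and *Trem2* and *Treml1* in none.

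Of 9 ligands and processing enzymes of *Trem2*, *Apoe* was the only gene called in all 6 comparisons. This lipoprotein, a *Trem2* ligand, went from 577 ± 333 CPM in NI (SD, n = 3) to 2859 ± 2207 CPM (HS) and 5334 ± 3260.5 CPM (FT) at 72 h. At 2 weeks it had 8858 ± 7337 CPM (HS) and 13943 ± 10410.4 CPM (FT), so that samples of 1 group differed widely. The call of *Apoe* at 72 h after HS was lost after quantile normalisation (adjusted p = 0.185) and under equal column totals (adjusted p = 0.0909). *Clu*, another lipoprotein ligand, was called lower at 2 weeks after FT (−1.81, adjusted p = 0.0225). The sheddases *Adam10* and *Adam17*, which cut *Trem2* from the membrane, were called in no comparison. *Psen2*, a subunit of the enzyme that cuts the remaining stump, was called at 2 weeks after both injuries, with a log2 difference of 1.17 in each.

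*Itgax*, which encodes the integrin chain CD11c, was the late gene of the 7. It had 13.9, 16.1 and 15.8 CPM in NI. At 72 h it had 10.4, 28.7 and 27.1 CPM after HS and 35.3, 21.9 and 17.99 CPM after FT. At this time the HS samples lay on both sides of NI and the FT samples above it. At 1 week it had 71.9 and 71.6 CPM after HS and 47.3, 52.1 and 52.9 CPM after FT. At 2 weeks it had 201, 145 and 153 CPM after HS and 151, 159 and 151 CPM after FT. Within either injury the samples of the 3 times did not overlap, given without the share of all genes that did so.

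Against NI, *Itgax* had log2 differences of 0.39 ± 0.28 (HS, adjusted p = 0.302) and 0.64 ± 0.28 (FT, adjusted p = 0.0973) at 72 h. It rose by 2.20 ± 0.31 (HS) and 1.70 ± 0.28 (FT) at 1 week and by 3.39 ± 0.28 and 3.29 ± 0.28 at 2 weeks, 10.5-fold and 9.78-fold (adjusted p = 4.3e-08 and 4.53e-08). CD11c is the usual marker of dendritic cells. The 10 dendritic cell markers had summed levels of 42.7 to 52.4 CPM in NI, 40.3 to 92.0 CPM at 72 h, 49.99 to 78.7 CPM at 1 week and 45.3 to 78.8 CPM at 2 weeks. *Zbtb46*, *Xcr1*, *Clec9a* and *Flt3* of that list were called in no comparison with NI (*Zbtb46* had 1.99 CPM in NI and 1.38 to 2.49 CPM after injury). The 1 gene called, in all comparisons but HS 72 h, was *Siglec1*, a lectin also found on macrophages. The part of dendritic cells in the level of *Itgax* was not tested. In the order of group means only FT 72 h and FT 1 week were neighbours that passed the test (adjusted p = 0.0254).

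Of 14 leukocyte integrin chains, 10 were called in no comparison with NI, among them *Itgam* (CD11b) and *Itgb2*, the beta chain that pairs with *Itgax*. *Itgb2* had 706 CPM in NI and 893 to 1373 CPM after injury. Called higher were 1 at 72 h and 3 at 1 and at 2 weeks after HS, and 1, 2 and 3 after FT, with none lower. Of all genes, 9.08%, 1.7% and 2.43% were called higher after HS and 8.14%, 2.86% and 3.53% after FT. The counts at 1 and 2 weeks include *Itgax*, and at 1 week after FT *Itgal* was the only other chain called. *Itgal*, the alpha chain of LFA-1, was the only integrin chain called in all 6 comparisons. It went from 4.12 CPM in NI to between 10.8 and 15.6 CPM, and with equal column totals it lost its call at 72 h after HS and at 1 week after both injuries. *Itgax* had the largest rise of the list in each of the 4 comparisons at 1 and 2 weeks, and *Itgal* in both at 72 h.

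*Cst7*, which encodes cystatin F, an inhibitor of lysosomal cysteine proteases, had the largest rise of the 7 genes in every comparison with NI. It had 20.3, 24.8 and 34.0 CPM in NI. After HS it had 185, 424 and 256 CPM at 72 h, 329 and 445 CPM at 1 week, and 603, 710 and 664 CPM at 2 weeks. After FT it had 270, 407 and 276 CPM at 72 h, 400, 436 and 686 CPM at 1 week, and 683, 686 and 761 CPM at 2 weeks. All 17 injured samples lay above NI. Within either injury the samples at 72 h and at 2 weeks did not overlap, given without the share of all genes that did so. *Cst7* rose by 3.37 ± 0.27, 3.87 ± 0.30 and 4.64 ± 0.27 after HS and by 3.57 ± 0.27, 4.23 ± 0.27 and 4.75 ± 0.27 after FT. At 2 weeks these were 25.0-fold and 27.0-fold (adjusted p = 1.09e-10 and 5.33e-11). *Cst7* is also expressed by natural killer cells, and the 8 markers of those cells in the table had a summed level of 5.96 to 7.96 CPM (NI) and 6.67 to 17.5 CPM (injured), with 2 called higher, both at 72 h after FT. Their part in its level was not tested. Only NI and HS 72 h were neighbours in the order of group means that passed the test.

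Of 15 cystatins and cysteine cathepsins in the table, *Cst7* and the proteases *Ctsb* and *Ctsl* rose in all 6 comparisons. Of the 15, HS gave 6 higher calls at the first time and 3 at the second, and each other comparison gave 5. Quantile normalisation gave 1 to 4 and equal column totals 2 to 4. *Cst7* kept all 6 calls under both. *Ctsl* kept only that at 72 h after HS under quantile normalisation and those at 72 h under equal column totals. *Ctsb* lost its calls at 1 week after both injuries and at 2 weeks after FT under quantile normalisation (0.78, 0.96 and 0.98), and that at 1 week after HS also under median of ratios scaling (adjusted p = 0.0534). *Ctsb* went from 4634 CPM in NI to 18170.1 CPM (HS) and 20071 CPM (FT) at 72 h. *Cst3*, the abundant secreted cystatin C, went the other way at 72 h, with log2 differences of −1.04 (HS, adjusted p = 0.0339) and −1.07 (FT, adjusted p = 0.0323). Later differences of *Cst3* did not pass the test. Cathepsin C (*Ctsc*), the protease that cystatin F is best known to inhibit, was called in no comparison, with differences of 0.99 and 1.00 at 72 h that stood just below the limit.

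*Cd9*, a tetraspanin of the cell surface, rose in all comparisons with NI but HS at 1 week. It had 1323, 1124 and 1187 CPM in NI. After HS it had 2046, 4157 and 2448 CPM at 72 h, 2025 and 2247 CPM at 1 week, and 3129, 3743 and 2693 CPM at 2 weeks. After FT it had 2164, 2913 and 2535 CPM at 72 h, 1686, 2388 and 3522 CPM at 1 week, and 3779, 3353 and 3570 CPM at 2 weeks. All 17 injured samples lay above NI, and the samples at 1 week after FT spread more than 2-fold among themselves. *Cd9* rose by 1.19 ± 0.27 at 72 h and 1.39 ± 0.27 at 2 weeks after HS, and by 1.06 ± 0.27, 1.00 ± 0.27 and 1.56 ± 0.27 after FT. At 1 week after HS the difference was 0.82 ± 0.31 (adjusted p = 0.205). The call at 1 week after FT stood at the limit (2.00-fold, adjusted p = 0.0277) and was lost without NI replicate 1, 2 or 3 or without FT 1 week replicate 2 or 3 (adjusted p of 0.0568 to 0.198). The 72 h calls were lost without the second replicate of HS (0.89) or of FT (0.95), below the limit of 2-fold. No neighbours in the order of its group means passed the test (adjusted p of at least 0.205).

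*Cd63*, a tetraspanin of late endosomes and lysosomes, had risen by 72 h and was higher than NI at all later times. It had 451, 364 and 474 CPM in NI. After HS it had 1761, 2587 and 1810 CPM at 72 h, 1478 and 1695 CPM at 1 week, and 2062, 2086 and 2214 CPM at 2 weeks. After FT it had 1882, 2762 and 1906 CPM at 72 h, 1610, 1723 and 2601 CPM at 1 week, and 2448, 2523 and 2450 CPM at 2 weeks. All 17 injured samples lay far above NI, and the second replicate was again the highest at 72 h. *Cd63* rose by 2.24 ± 0.23, 1.89 ± 0.25 and 2.31 ± 0.23 after HS and by 2.33 ± 0.23, 2.18 ± 0.23 and 2.53 ± 0.23 after FT, which is 3.70-fold to 5.79-fold. Only NI and HS 1 week, the lowest injured group, were neighbours in the order of group means that passed the test.

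*Tyrobp*, *Cst7*, *Cd9* and *Cd63* are thus the 4 of 7 genes with all 17 injured samples above all NI samples, as seen for 4.94% of all genes. *Cst7* and *Cd63* are the 2 of 7 that were DE higher in all 6 comparisons, as were 0.993% of all genes. Of 20 tetraspanins, 15 were called in no comparison with NI, among them *Cd81* (2977 CPM in NI and 3030 to 3599 CPM after injury). Called higher were 3, 1 and 3 with time after HS and 3, 2 and 2 after FT, and 1 was called lower in each comparison but HS 2 weeks. Of all genes, 9.08%, 1.7% and 2.43% were called higher after HS and 8.14%, 2.86% and 3.53% after FT. These counts include *Cd63* in each comparison and *Cd9* in all but HS 1 week. No other tetraspanin was called higher at 1 week after HS or at 1 and 2 weeks after FT. With equal column totals 1 or 2 were called higher and up to 6 lower, at 72 h after either injury. *Cd63* had the largest rise in each. *Tspan18* had the largest fall at 72 h after both injuries and at 2 weeks after FT (−1.07 to −1.24), and *Tspan13* at 1 week after both (−1.06 and −1.38).

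Between times, only *Itgax* and *Cst7* of the 7 genes were called. From 72 h to 1 week *Itgax* rose by 1.81 ± 0.31 after HS (adjusted p = 0.000679) and by 1.06 ± 0.28 after FT (adjusted p = 0.0254), 1 of 7 genes each, against 1.95% and 0.827% of all genes called higher. From 72 h to 2 weeks both genes rose, 2 of 7, against 1.37% (HS) and 1.13% (FT) of all genes. *Itgax* rose by 3.00 ± 0.28 and 2.65 ± 0.28 and *Cst7* by 1.27 ± 0.27 and 1.18 ± 0.27 over that interval. From 1 to 2 weeks *Itgax* rose after FT (1.59 ± 0.28, adjusted p = 0.0295), 1 of 7 genes against 0.0476% of all genes. After HS none of the 7 was called, against 0.00595% of all genes, although *Itgax* (1.19 ± 0.31) and *Cst7* (0.78 ± 0.30) had an unadjusted p-value under 0.05. The edgeR quasi-likelihood and likelihood ratio tests and DESeq2 on recovered reads also called 0 of 7 there.

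The calls of *Itgax* between neighbouring times after FT were not stable. From 72 h to 1 week the call was lost without FT 72 h replicate 2 or 3 or FT 1 week replicate 2 or 3 (adjusted p of 0.0568 to 0.114). From 1 to 2 weeks it was lost without HS 1 week replicate 2, any FT 1 week replicate, or FT 2 weeks replicate 2 or 3 (adjusted p of 0.0502 to 0.163). The call of *Cst7* from 72 h to 2 weeks after HS was lost without HS 72 h replicate 1, where the difference of 1.00 fell just under 2-fold. *Trem2*, *Tyrobp*, *Syk*, *Cd9* and *Cd63* were called between no times. For *Cd63* the differences between times lay between −0.35 and 0.42, and for *Tyrobp* between −0.55 and 0.35.

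Ratios of 2 genes within a sample do not depend on the scaling between samples. These 3 pairs were chosen after the values were seen and are given as a description. The ratio of *Tyrobp* to *Trem2* reads was 0.912 to 1.16 in NI, 1.65 to 2.62 in the 6 samples at 72 h, 1.09 to 1.70 at 1 week and 1.05 to 1.71 at 2 weeks. The samples at 72 h did not overlap with NI but overlapped with the later samples. The ratio of *Itgax* to *Cst7* was 0.466 to 0.686 in NI, 0.0538 to 0.131 at 72 h, 0.0771 to 0.219 at 1 week and 0.198 to 0.333 at 2 weeks. It was lowest at 72 h, and the samples at 72 h and 2 weeks did not overlap. The ratio of *Cd63* to *Cd9* was 0.324 to 0.399 in NI and 0.557 to 0.955 in all injured samples, without overlap.

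**Figure D3:**
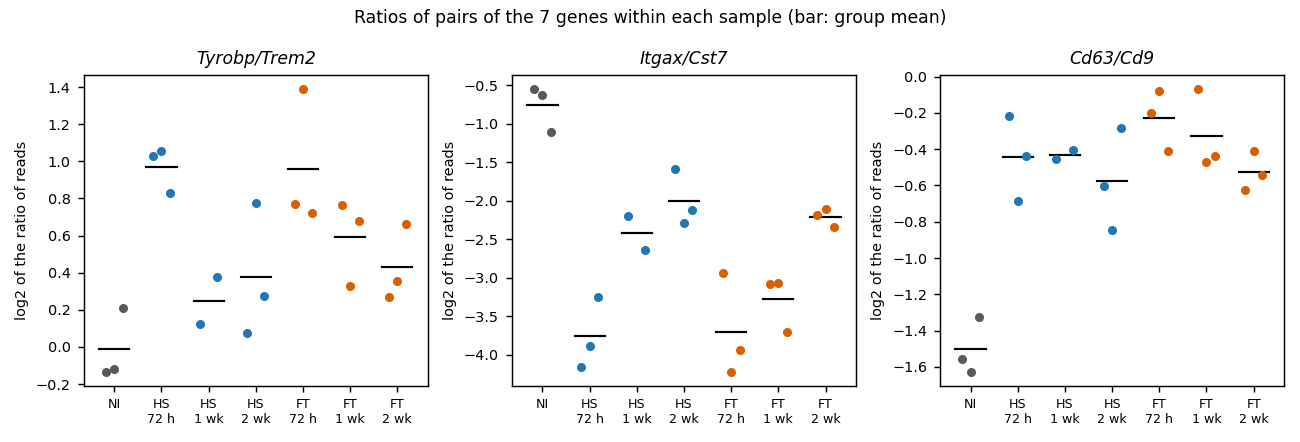
Log2 ratios of reads of 2 genes within each sample (y axis) by group (x axis), with points for samples and bars for group means. The *Itgax* to *Cst7* ratio is lowest at 72 h (0.0538 to 0.131) and higher at 2 weeks (0.198 to 0.333), and the *Cd63* to *Cd9* ratio stays above NI throughout.

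HS and FT were compared at each time, which asks whether the severity of the lesion alters these genes. None of the 7 was called at 72 h, 1 or 2 weeks, as was 0% of all 16810 genes at each time, and none had an unadjusted p-value under 0.05. Over all genes 505, 724 and 438 had one at the 3 times. The edgeR quasi-likelihood and likelihood ratio tests and DESeq2 on recovered reads also called 0 of the 7, and at most 8 of all genes at any time. The differences (FT minus HS) lay between −0.14 and 0.25 at 72 h, between −0.50 and 0.57 at 1 week and between −0.10 and 0.24 at 2 weeks.

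The widest differences were at 1 week, where HS has 2 samples. *Tyrobp* was 0.57 ± 0.29 higher after FT, with a 95% interval of −0.02 to 1.17 and an unadjusted p of 0.0582. *Itgax* was 0.50 ± 0.31 lower after FT, with an interval of −1.14 to 0.15. These 2 intervals reach past 2-fold, while those of the other genes and times stay within it. At 1 week *Trem2* and *Tyrobp* had all FT above all HS samples, 2 of 7 genes against 6.79% of all genes, and *Itgax* had all FT below HS, 1 of 7 against 8.25%. At 2 weeks *Cd63* had all FT samples above HS, 1 of 7 against 4.45%. The tests of the difference in time course between the injuries called none of the 7 and 0% of all genes (limma, adjusted p of at least 0.996), and none had an unadjusted p-value under 0.05. The intervals do not show that the injuries act alike.

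**Figure D4:**
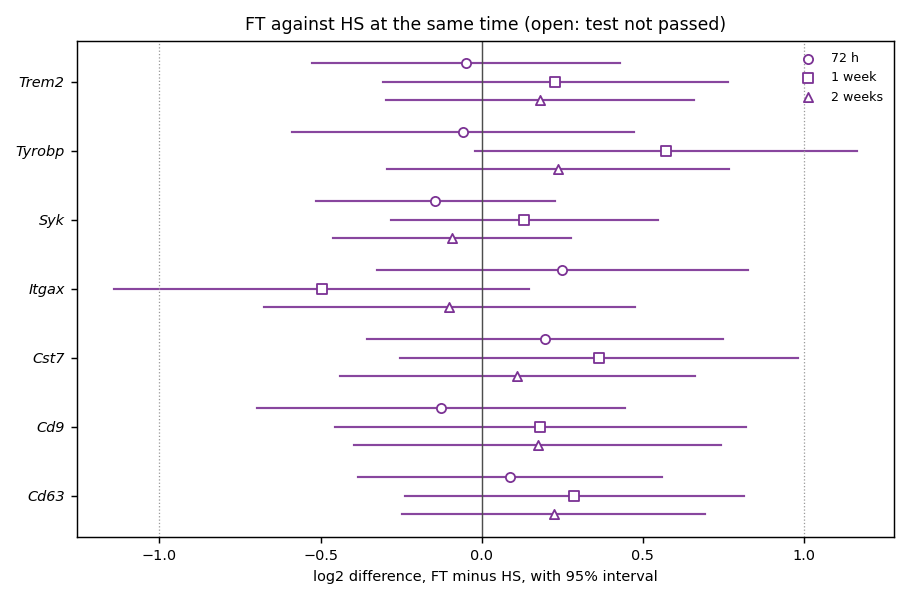
Log2 differences between FT and HS (FT minus HS, x axis) of the 7 genes (y axis) at 72 h, 1 and 2 weeks, as points with 95% intervals from limma. Dotted lines mark 2-fold. All points are open (not called), and only *Tyrobp* and *Itgax* at 1 week have intervals that reach past 2-fold.

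Levels were compared between genes per kilobase of the principal transcript (564 bases for *Tyrobp*, 5363 for *Syk*, 4046 for *Itgax* and 986 to 1228 for the other 4). On this scale *Tyrobp* stood highest in all 7 groups, with 3118 ± 514 CPM per kb in NI (SD, n = 3) and 4643 to 6986 CPM per kb in the injured groups. *Trem2* was next in NI (1617 ± 37.8 CPM per kb). At 72 h and at 2 weeks *Cd9* stood above it, at 2348 and 2066 CPM per kb at 72 h (HS and FT) against 1819 and 1732 CPM per kb for *Trem2*. *Cst7* went from 26.7 CPM per kb in NI, below *Syk* (34.9 CPM per kb), to 668 and 720 CPM per kb at 2 weeks. *Itgax* was the lowest of the 7 until 1 week, at 3.78 CPM per kb in NI, and stood above *Syk* at 2 weeks (41.1 against 27.7 after HS and 38.0 against 26.02 CPM per kb after FT). *Cst7* never passed *Cd63*, *Cd9*, *Trem2* or *Tyrobp* in group means. All annotated exons together cover 9362 bases for *Syk* and 4946 for *Trem2*, more than the principal transcripts. Ranks between genes, such as *Cst7* below *Syk* or *Trem2* second in NI, therefore depend on the length used.

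Other genes of the DAM state rose beside the markers above. Both lists hold members of the 7 and were written with earlier results of these data known, so that their counts are a description. Of 21 stage 2 genes, 14, 11 and 17 were called higher after HS at 72 h, 1 and 2 weeks and 15, 16 and 17 after FT, with none lower. Their median log2 differences ran from 1.05 (HS 1 week) to 1.53 (FT 2 weeks), against −0.11 to 0.02 over all genes. With equal column totals 7 to 13 of the 21 were called higher, and after quantile normalisation 8 to 12, with none lower in either. *Lpl*, *Cst7*, *Axl*, *Clec7a*, *Spp1*, *Csf1*, *Ctsl* and *Cd52* were called in all 6 comparisons, and *Trem2*, *Serpine2*, *Cadm1* and *Csf2ra* in none. Of these 8, *Axl*, *Csf1* and *Ctsl* each lost at least 1 call under another scaling. *Spp1* (osteopontin, a secreted matrix protein) had the largest rise of the list in each, from 94.0 CPM in NI to 4161 CPM (HS) and 4585 CPM (FT) at 72 h and 3698 and 3201 CPM at 2 weeks. *Lpl* (lipoprotein lipase) went from 67.8 CPM in NI to 502 and 537 CPM at 72 h and 1117 and 1202 CPM at 2 weeks, and the receptor kinase *Axl* from 78.7 CPM to 215 and 224 CPM and then 504 and 528 CPM.

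Of 9 stage 1 genes, 5, 3 and 4 were called higher after HS and 5, 6 and 7 after FT, with none lower. This fell to 3 to 5 under equal column totals and 2 to 3 after quantile normalisation, which gave 2 in place of 7 at 2 weeks after FT. *Apoe*, *Ctsb* and *Lyz2* (lysozyme) were called in all 6 comparisons, of which *Lyz2* alone kept all 6 calls under each scaling, and *Fth1* and *Timp2* in none. *B2m* and *H2-D1*, of the class I antigen presentation machinery, had their largest differences at 2 weeks after FT (1.26 and 1.84, both called). Of 16 homeostatic genes, 4 were called lower at 72 h after HS, 3 at 72 h after FT, 1 at each later time after FT and none later after HS. This count depended on the scaling, with 3 to 8 called lower under equal column totals and 5 to 10 after quantile normalisation. *P2ry12*, the purinergic receptor of resting microglia, had 4223 CPM in NI and 1954 to 2898 CPM after injury, and passed the test at 2 weeks after FT (−1.11, adjusted p = 0.0492). That call was lost under median of ratios scaling (adjusted p = 0.0552), while under the other 2 scalings *P2ry12* was called lower in all 6 comparisons. *Txnip*, which binds thioredoxin, had the largest fall at 72 h and 1 week after FT (−1.23 and −1.05), and *Rhob*, a small GTPase, at 72 h after HS (−1.26). *Fcrls*, in the same list, rose at 72 h after both injuries (1.51 and 1.61) and at 1 week after FT (1.15). All 3 calls were lost after quantile normalisation (0.82, 0.86 and 0.56), and that at 1 week also under equal column totals (0.80).

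**Figure D5:**
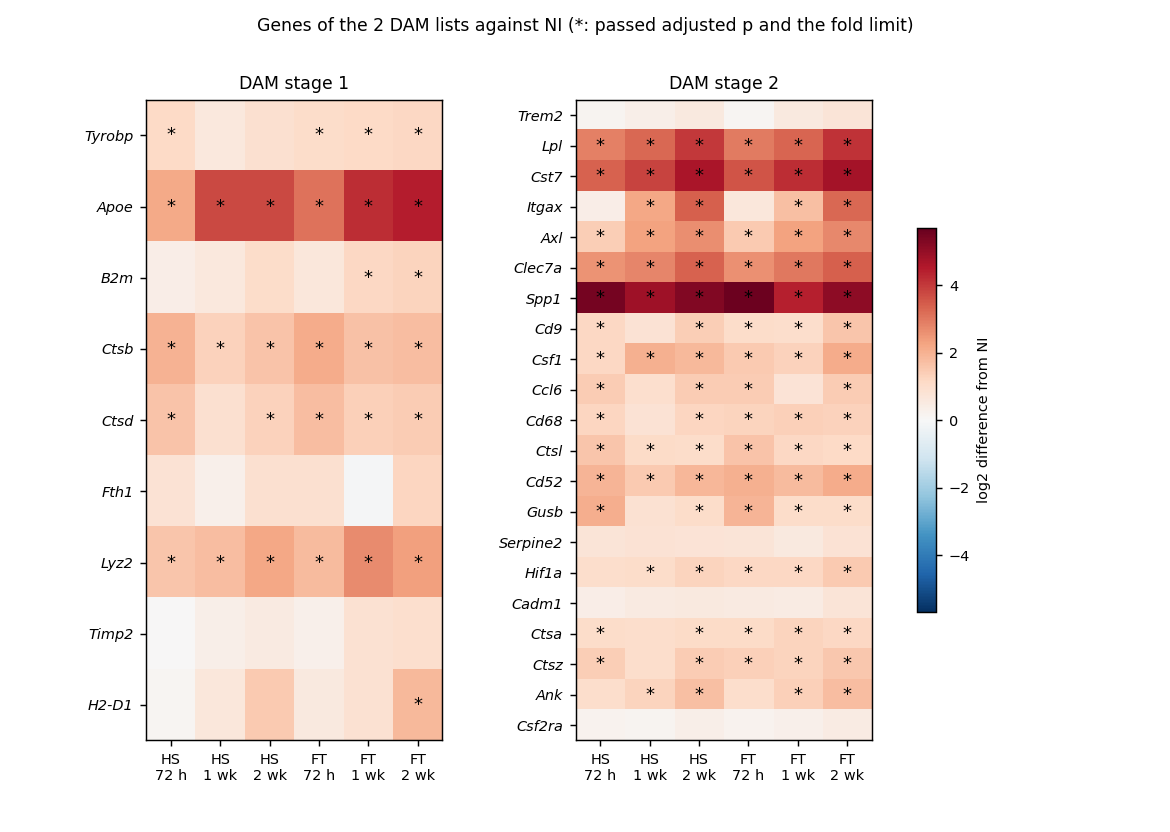
Log2 differences from NI (colour scale) of the 9 stage 1 and 21 stage 2 DAM genes (rows) in the 6 injured groups (columns), with an asterisk where the test was passed. Red cells are higher than NI. The *Trem2* row holds no asterisk, and the *Spp1*, *Cst7*, *Lpl* and *Apoe* rows are the darkest.

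The genes with the most alike patterns were found by the root mean square (RMS) difference between the 7 group means on the log2 scale, each profile centred on its own mean, among 14050 genes with a mean of at least 1 CPM. For *Trem2* the closest was *Ctss*, a lysosomal protease (RMS 0.04), followed by *Itpripl2* and *Susd4* (both 0.06). For *Tyrobp* they were 3 ribosomal protein genes, *Rpl36a*, *Rpl36* and *Rpl39* (0.07 to 0.08). *Rpl36a* had 126 CPM in NI and 208 to 311 CPM after injury. For *Syk* they were *Arhgap12*, *A230046K03Rik* and *Mafg* (all 0.04).

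For *Cst7* the closest was *Igf1*, a growth factor (RMS 0.16), which went from 7.62 CPM in NI to 93.2 and 118 CPM at 72 h and 199 and 207 CPM at 2 weeks. *Ch25h*, an enzyme that makes an oxysterol, and *Lpl* followed (0.22 and 0.25). For *Cd63* they were *Cd44*, *Cd52* and *Ly9* (0.14 to 0.16), and for *Cd9* they were *Asns*, *Dram1* and *Cd40* (0.07 to 0.10). *Itgax* had no close match. Its nearest were *Dkk2*, *Pianp* and *Postn*, with RMS differences of 0.36 to 0.45 and levels in NI of 0.667, 1.06 and 6.69 CPM. The 7 group means share their libraries.

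Moderate changes depended on how the libraries were scaled to each other. The deposited columns sum to 777426 to 830481 CPM in NI and 878070 to 1202190 CPM after injury. With all columns set to the same total, the median log2 difference from NI over all genes shifted to −0.52 (HS 72 h), −0.48 (FT 72 h) and −0.36 to −0.17 (later groups). Higher calls then made up 16.2% to 53.3% of all calls, whereas they made up 66.6% to 77.9% with the deposited scaling and 58.0% to 71.9% after quantile normalisation. Under equal totals the difference of *Trem2* turned negative at 72 h (−0.37 after HS and −0.38 after FT), above the median of all genes in both, and at 1 and 2 weeks it was 0.11 to 0.32. Under quantile normalisation it was negative in all comparisons but FT 2 weeks, with −0.61 at 72 h after HS (adjusted p = 0.0428, below 2-fold).

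*Tyrobp* and *Cd9* kept their direction but lost their calls at 72 h and at FT 1 week under both scalings (differences of 0.40 to 0.81). *Tyrobp* lost its call at FT 2 weeks under both as well (0.77 and 0.57), and *Cd9* lost its call at HS 2 weeks under quantile normalisation alone (0.87). *Syk* was lower under both, by −0.55 to −0.83, with adjusted p-values of 0.000555 to 0.0664, but not by 2-fold. The calls of *Cst7*, *Cd63* and *Itgax* against NI stood under both, and the 72 h difference of *Itgax* after HS, which was not called, turned to −0.10 under equal totals. FT 1 week replicate 1 stood apart from its group, and without it the same 5 genes were called at that time, while the difference of *Syk* went from −0.27 to −0.03.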

How the data were processed

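RNA of eGFP-high cells from 20 samples in 7 groups was amplified with the Clontech SMARTer Ultra Low kit and sequenced after Illumina Nextera library preparation. Per the labels and the study's methods, the authors mapped reads with TopHat2 2.0.9 to mm10, counted them per gene with HTSeq 0.5.4p3, kept genes with 10 counts in 2 replicates and normalised by library size with edgeR 3.3.6. Whether counting used strand is not given in the sources used here. The deposited signal is a normalised count (CPM) for 16810 genes, whose column totals show a scaling beyond library size alone. All 336200 values (100%) were whole multiples of 1 step per column within 0.001 of a step, so that whole reads could be recovered. The main test was planned for normalised values and was kept. Values were tested as log2(CPM + 0.5), which understates changes of low genes, with limma 3.58.1 (R 4.3.3, intensity trend) over all 20 samples with 7 group means and no covariate. The study used a negative binomial model. DE required an adjusted p under 0.05 and at least 2-fold, and time by injury interactions an adjusted p under 0.05 alone. Precision rests on 2 or 3 samples a group.

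The 7 genes, the pathway lists and the marker lists were chosen with earlier results of these data known. The named genes were the 7, the called genes with the largest rise and fall per list and comparison with NI, list genes called in all 6, and the 3 genes with the most alike profile. Of 273 listed genes, 265 were in the table. Alternatives were 34 settings, among them 3 other scalings, a replicate block, tests of the recovered reads with edgeR 4.0.16 or DESeq2 1.42.0, and the omission of each sample in turn (20 fits). The procedure was also run on simulated data with changes set larger than 2-fold, so that this run does not bear on calls near that limit. Gene places come from GENCODE vM21 and promoter windows from RefSeq (GRCm38.p6), in which 6 of the 7 genes were found.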

Additional observations from a re-analysis of the deposited data

How the results depend on the processing

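All alternatives were planned. Of the single-gene results under the 34 alternatives, 4238 kept their side of the threshold, 44 lost a call, 2 gained one (*Tyrobp*, HS 2 weeks against NI, 0.93 without the fold limit and 1.06 without NI replicate 3), and no called value changed sign. Values that were not called could change sign among the 4238, as those of *Trem2* and of *Itgax* at 72 h after HS did. The 4238 include results never called in the main fit, among them all of FT against HS and all interactions. That number therefore does not measure how stable the calls were. The number of the 7 genes called against NI at 72 h became 2 after HS and 2 after FT, in place of 4 each, under quantile normalisation and under equal column totals, and ranged from 2 to 4 when 1 sample was left out (2 without the second replicate of that group). At 1 week after FT it became 3, in place of 5, under both scalings and in a fit of only the samples compared. Between 72 h and 2 weeks after HS it ranged from 1 to 2 when 1 sample was left out. From 72 h to 1 week after FT it became 0, in place of 1, in the test against 1.2-fold and in the fit of only the samples compared, and ranged from 0 to 1 when 1 sample was left out. From 1 to 2 weeks after FT it became 0, in place of 1, in the test against 1.2-fold and with the replicate block (adjusted p of *Itgax* 0.0513), and ranged from 0 to 1 when 1 sample was left out. Without 1 sample of HS at 1 week the lone sample is assumed to vary like the other groups. Samples with the same number did not deviate together (57 pairs, r from −0.39 to 0.38), 8 of 20 correlated best with their own number, and the block changed no other call of the 7 genes.

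Over all genes, called genes against NI at 72 h after HS numbered 2250, against 3820 under equal column totals, 4585 without the fold limit and 2842 by the edgeR quasi-likelihood test, which called 370 to 2217 in the other comparisons with NI (367 to 2057 in limma). Without FT 1 week replicate 1 that comparison called 1078 genes in place of 681, and without either HS 1 week sample 166 or 172 in place of 367. Unless the settings themselves explain it (fewer samples, another scaling), the cause was not tested.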

Other observations

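Markers of cells at the borders of the cord, the meningeal and perivascular macrophages, did not move as 1 list. Of 6 such markers in the table, 5 (*Mrc1*, *Lyve1*, *Cd163*, *Pf4* and *Cbr2*) were called lower at 2 weeks after either injury. The other, *Folr2*, a folate receptor, was called higher in all comparisons with NI but HS 2 weeks (1.37 to 3.90). The sum of all 6 was 170 to 174 CPM in NI, 52.5 to 63.9 CPM at 2 weeks after HS and 48.0 to 74.5 CPM at 2 weeks after FT. At 72 h the sum was 140 to 172 CPM after HS and 179 to 207 CPM after FT. Of 9 astrocyte markers, 6 were called lower and none higher at 2 weeks after either injury, with sums of 421 to 761 CPM in NI and 164 to 324 CPM (HS) and 187 to 252 CPM (FT) at 2 weeks. At 72 h 4 were called lower after HS and 1 after FT, while *Gfap*, the filament protein of astrocytes, was called higher after both (2.20 and 2.86) and at 1 week after FT (1.28), and *Aldh1l1* was called higher at 72 h after FT (1.21). At 1 week 4 (HS) and 5 (FT) were called lower. None of 9 lymphocyte markers was called in any comparison with NI, and the largest sum in any sample was 59.6 CPM. Of 10 genes induced by dissociation and stress, 3 were called lower at 72 h after either injury and 2 at 1 week after FT, and their sum varied within groups, from 849 to 4311 CPM at 1 week after FT and from 1731 to 8455 CPM at 2 weeks after HS. The 9 oligodendrocyte markers had sums of 480 to 2616 CPM over all samples, the 9 neutrophil markers of 15.4 to 293 CPM, the 7 endothelial markers of 22.2 to 65.4 CPM and the 7 neuronal markers of 12.6 to 70.4 CPM.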
